A study of Mus musculus with 6 samples.

Results

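The 35 genes described here mark T cells, natural killer (NK) and cytotoxic cells and B cells, and they were followed in bulk RNA-seq of primary mouse hepatocytes. They were taken as a list of gene symbols, and all 35 were found among the 34745 genes counted, each under 1 Ensembl identifier. The list holds 16 T cell genes, 11 NK and cytotoxic genes, 6 B cell genes and 2 genes that several lymphocytes share. The hepatocytes came from male mice aged 12 weeks, 3 libraries for each of 2 groups, and every mouse carried floxed Foxa2 alleles. FOXA2f/f mice had received the control virus AAV8-TBG-Control and FOXA2H-KO mice AAV8-TBG-Cre, in which the TBG promoter, active in hepatocytes, drives the Cre recombinase. Both groups were then treated with CCl4, a liver toxin that causes fibrosis, in 2 injections of 0.25 ml/kg each week over 4 weeks, starting 2 weeks after the virus, and were killed on day 3 after the last dose. Cells were obtained by collagenase perfusion and low-speed centrifugation, which enriches hepatocytes and can carry other liver cells along, and the deletion was directed to hepatocytes and not to lymphocytes.

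Lymphocytes are the cells of adaptive immunity together with the innate NK cells. A T cell recognises antigen through a T cell receptor held in a complex with CD3 chains, and the kinases Lck and Zap70 pass the signal on. A B cell uses a membrane antibody coupled to Cd79a and Cd79b. NK cells read activating and inhibitory surface receptors and kill with granules of perforin and granzymes. The liver holds all of these cells in its sinusoids, with a large NK cell population, and more enter it during injury, whereas hepatocytes are not known to use antigen receptors.

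Foxa2 was read first as a check of the labels. Its counts were 442, 246 and 516 in FOXA2f/f and 28, 19 and 35 in FOXA2H-KO libraries, where here and below the 3 values of a group stand in the order of replicates 1, 2 and 4. Foxa2 fell in FOXA2H-KO by 3.85 on the log2 scale (standard error, SE, 0.31, Benjamini-Hochberg adjusted p = 0.0313 from the quasi-likelihood test of edgeR), with 6.98% of the FOXA2f/f level left. The libraries held between 20983455 and 28327765 counts. Hepatocyte identity was clear in each of them, with the albumin gene Alb between 36584 and 42990 FPKM (fragments per kilobase of gene and 1000000 counted fragments) and the hepatocyte factor Hnf4a between 62.2 and 71.3 FPKM. FOXA2f/f replicates 2 and 4 stood at opposite ends for macrophage and endothelial markers, as set out further on, so that results are also given without each of them.

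Lymphocyte transcripts were rare in all 6 libraries, and their amount differed more between libraries of one genotype than between the genotypes. The 35 genes together had 514, 184 and 1198 counts in FOXA2f/f and 1249, 824 and 545 counts in FOXA2H-KO libraries. Per 1000000 counts of the library this was 20.1 (95% Wilson interval 18.4 to 21.9), 8.77 (7.59 to 10.1) and 42.3 (40.0 to 44.8) in FOXA2f/f. The FOXA2H-KO libraries had 51.6 (48.8 to 54.5), 33.6 (31.4 to 36.0) and 25.0 (23.0 to 27.2). These intervals cover counting error only and none of the 6 overlapped another. In a bulk sample, fewer cells of a type and less RNA per cell cannot be told apart. After TMM scaling of the library sizes, in counts per 1000000 (CPM), the sum was 23.4 ± 14.0 CPM in FOXA2f/f and 34.7 ± 10.5 CPM in FOXA2H-KO (SD, n = 3), a ratio of 1.48. FOXA2f/f replicate 4 held 3.77 times the sum of replicate 2 of its own group. The ratio of FOXA2H-KO over FOXA2f/f was 1.15 without FOXA2f/f replicate 2, 2.16 without FOXA2f/f replicate 4 and 1.24 without FOXA2H-KO replicate 1.

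**Figure D1:**
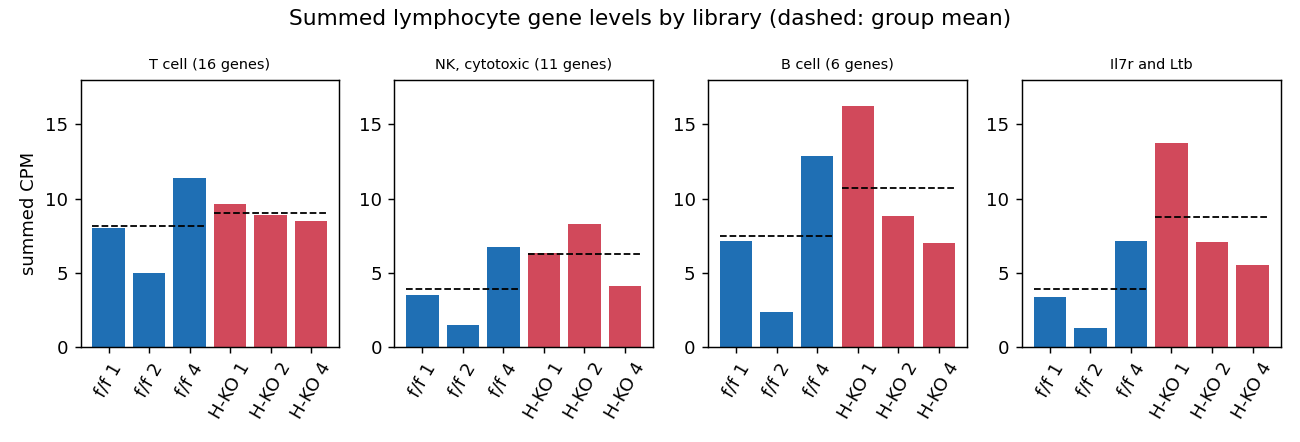
Summed CPM (vertical axis, linear from 0) of the T cell, NK and cytotoxic, B cell and shared genes in each library, blue for FOXA2f/f and red for FOXA2H-KO, with the group mean as a dashed line. In each of the 4 panels FOXA2f/f replicate 2 has the lowest bar and FOXA2f/f replicate 4 lies above the lowest FOXA2H-KO bar.

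No member passed the test between genotypes. Of the 35 genes, 17 had enough counts to be tested, and 0 were called at an adjusted p under 0.05 with a change of at least 2-fold by edgeR's quasi-likelihood test. Of all 14417 genes tested 0.00694% were called, which is 1 gene, Foxa2. At an unadjusted p under 0.05 edgeR counted 0 of the 17, against 5.17% of all genes tested, 1.98% higher and 3.18% lower. DESeq2, which fitted all 35, called 0, against 0.482% of the genes with an adjusted p. At an unadjusted p under 0.05 DESeq2 had 1 of the 35, Il7r, beside 912 of all 22561 genes with a count. DESeq2 gave 10 of the 35 no adjusted p, so that these could not be called. The fitted log2 fold change was above 0 in 15 of the 17 genes, with a median of 0.49, whereas 47.8% of all genes tested were above 0 with a median of -0.01. Fitted without the filter on low counts, 28 of the 35 were above 0 and 7 below, with a median of 0.61, beside 49.4% above 0 among all 22561 genes with a count. In 1 of the 35, Klrd1, the groups did not overlap, with FOXA2H-KO above, against 8.9% of all genes with a count in either direction and 4.05% with FOXA2H-KO above. A fitted difference of at least 2-fold, which is no call, was reached by 4 of the 17 (Klrd1, Pax5, Blk and Il7r), all higher and with SEs from 0.57 to 1.01, against 1.45% of all genes tested that were higher and 1.5% that were lower by this much.

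The 18 members that were not tested had between 11 and 65 counts over the 6 libraries, with at most 21 in any one of them, and 10 of the 18 were at 0 in at least 1 library. A count of 0 in a library allows a level of up to between 0.106 and 0.143 counts per 1000000 (3 counts of the total), depending on its depth. At least 1 count was found for 33, 27 and 35 members in FOXA2f/f and for 33, 35 and 31 members in FOXA2H-KO libraries. Members with 10 counts or more numbered 13, 4 and 24 in FOXA2f/f and 21, 19 and 13 in FOXA2H-KO.

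**Figure D2:**
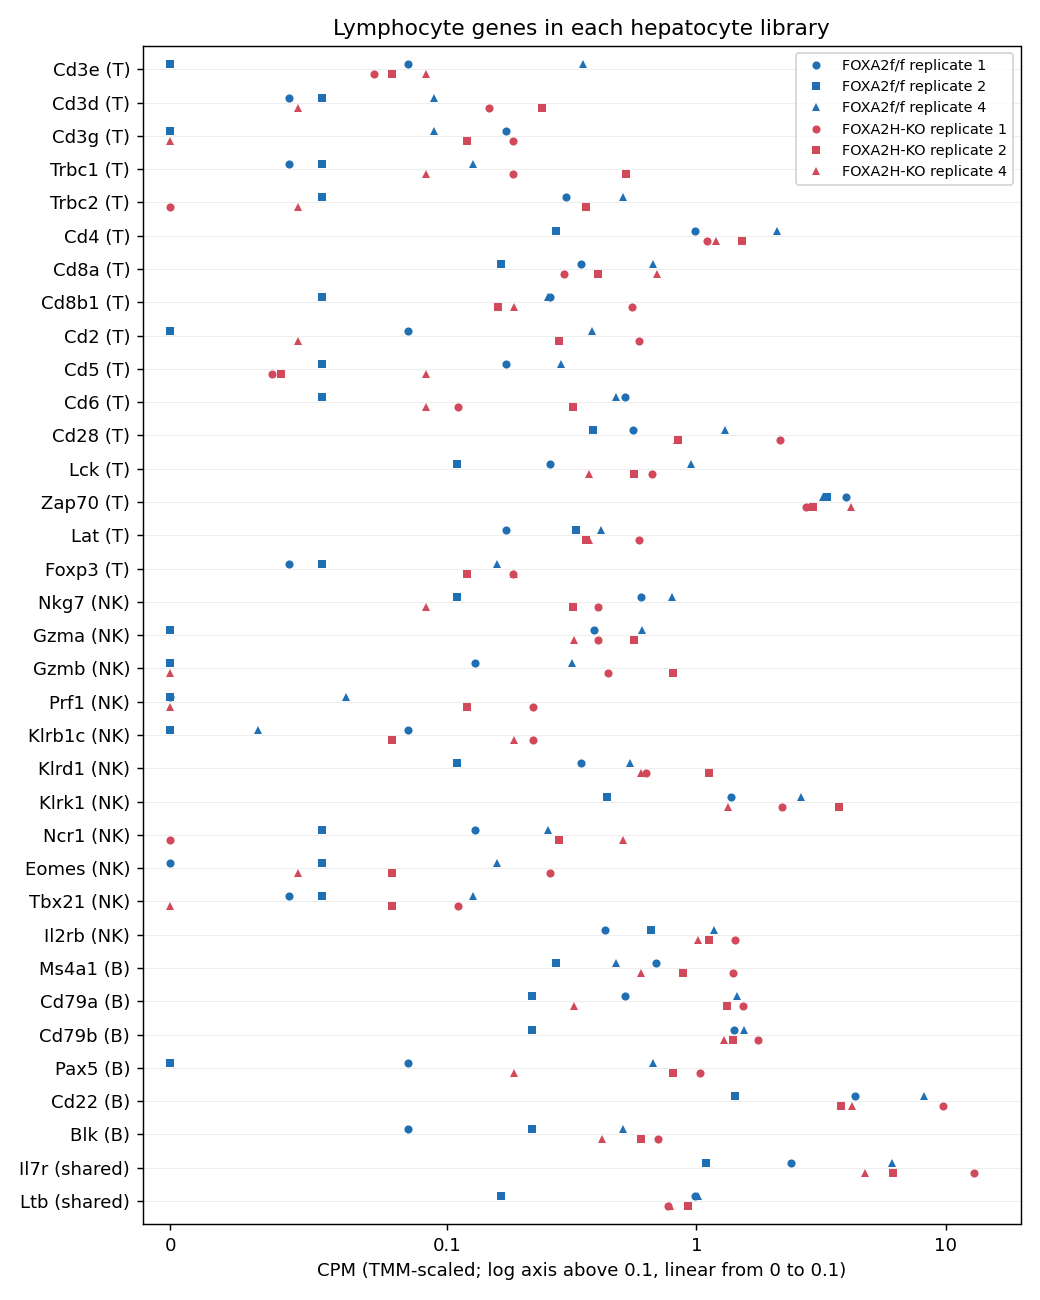
CPM of each of the 35 genes (rows) in the 6 libraries, on a horizontal axis that is logarithmic above 0.1 and linear below it, with blue marks for FOXA2f/f, red marks for FOXA2H-KO and the mark's shape for the replicate number. Most genes lie under 1 CPM with interleaved blue and red marks, and the blue squares of FOXA2f/f replicate 2 are leftmost, ties included, in 22 rows.

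On the FPKM scale, which takes gene length into account, the order of levels among members ran from Il7r, with a mean of 1.84 FPKM over the 6 libraries, through Zap70 at 0.808, Cd79a at 0.650, Cd79b at 0.626 and Cd22 at 0.533, down to Klrb1c at 0.0214, Foxp3 at 0.0193 and Eomes at 0.0150. The order was not the same in each library, since Zap70 lay above Il7r in FOXA2f/f replicates 1 (0.867 against 0.682 FPKM) and 2 (0.694 against 0.297), and Il7r reached 4.55 FPKM in FOXA2H-KO replicate 1. It also depends on the gene lengths behind the deposited FPKM, which differ from the exon bases of the GENCODE M21 annotation. For Cd22 the length was 10428 against 5042 exon bases, and for Cd3e 1436 against 4080. Genes of other cells are given for scale. Ptprc, which encodes the leukocyte antigen CD45, had a mean of 1.90 FPKM, the cholangiocyte keratin Krt19 0.751 FPKM, the endothelial gene Pecam1 3.74 FPKM, and the Kupffer cell lectin Clec4f 68.8 FPKM. The CD3 chains, which define T cells, had means of 0.0839 (Cd3e), 0.0817 (Cd3d) and 0.0738 FPKM (Cd3g).

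The T cell receptor and CD3 chains were too rare for any comparison of genotypes. Cd3e, which carries the signal of the receptor into the cell, had 2, 0 and 11 counts in FOXA2f/f and 2, 2 and 2 in FOXA2H-KO. Cd3d had 1, 1 and 3 counts in FOXA2f/f and 4, 6 and 1 in FOXA2H-KO. Cd3g had 4, 0 and 3 counts in FOXA2f/f and 5, 3 and 0 in FOXA2H-KO. The highest of these 18 values was the 11 counts of Cd3e in FOXA2f/f replicate 4, and none of the 3 genes separated the groups. They lie side by side on chromosome 9 (GRCm38, GENCODE M21), Cd3g at chr9:44969572-44980431 on the minus strand, Cd3d at chr9:44981786-44987339 on the plus strand and Cd3e at chr9:44998740-45009627 on the minus strand.

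Trbc1 and Trbc2 encode the alternative constant regions of the receptor's beta chain, and their values have to be read together because their sequences are close to each other. Trbc1 lies at chr6:41538218-41539881 and Trbc2 at chr6:41546730-41548352, both on the plus strand of GRCm38. Their coding parts in GENCODE M21 have 521 bases each and are 95.6% identical, with 23 differing bases and an unbroken identical run of 259 bases. Bases outside the coding part were not compared. The stretch from base 399 to base 518 of the coding part holds 19 of the 23 differences, by which a read can be assigned to one gene, and capitals mark the differing bases:
Trbc1: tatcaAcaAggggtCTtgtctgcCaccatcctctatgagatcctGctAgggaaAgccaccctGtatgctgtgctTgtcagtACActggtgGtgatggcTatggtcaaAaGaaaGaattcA
Trbc2: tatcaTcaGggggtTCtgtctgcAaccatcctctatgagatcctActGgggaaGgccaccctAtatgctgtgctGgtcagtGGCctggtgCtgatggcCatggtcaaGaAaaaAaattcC
Trbc1 had 1, 1 and 4 counts in FOXA2f/f and 5, 13 and 2 in FOXA2H-KO. Trbc2 had 7, 1 and 16 counts in FOXA2f/f and 0, 9 and 1 in FOXA2H-KO. The unfiltered fitted log2 fold changes lay on opposite sides of 0, at 1.70 (SE 0.93) for Trbc1 and -1.12 (SE 1.07) for Trbc2. How the counting split fragments from the identical stretch is not given in the sources used here, so both values are uncertain. The 5 receptor and CD3 genes together summed to 0.644, 0.164 and 1.18 CPM in FOXA2f/f and to 0.588, 1.32 and 0.277 CPM in FOXA2H-KO, with overlapping ranges.

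Among the coreceptors, Cd4, which binds MHC class II and is carried by helper T cells, had the most counts. Its level was 0.988, 0.274 and 2.10 CPM in FOXA2f/f and 1.10, 1.52 and 1.20 CPM in FOXA2H-KO libraries. The FOXA2H-KO values lay within the FOXA2f/f range, and the log2 fold change was 0.15 (SE 0.61, edgeR Benjamini-Hochberg adjusted p = 0.993). Cd4 is also known on some macrophages and dendritic cells. The chains of the MHC class I coreceptor of cytotoxic T cells were not tested, with 8, 3 and 21 counts in FOXA2f/f and 8, 10 and 15 in FOXA2H-KO for Cd8a. Cd8b1 had 6, 1 and 8 counts in FOXA2f/f and 15, 4 and 4 in FOXA2H-KO, again with overlapping groups.

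Of the adhesion and costimulatory receptors only Cd28, which delivers the second signal of T cell activation, was tested. Its level was 0.558, 0.384 and 1.30 CPM in FOXA2f/f and 2.17, 0.842 and 0.832 CPM in FOXA2H-KO, where FOXA2f/f replicate 4 lay above 2 of the FOXA2H-KO libraries. The log2 fold change was 0.74 (SE 0.59, edgeR adjusted p = 0.983). Cd2, an adhesion receptor, had 2, 0 and 12 counts in FOXA2f/f and 16, 7 and 1 in FOXA2H-KO. Cd5 and Cd6, which dampen receptor signals, had 4, 1 and 9 and 12, 1 and 15 counts in FOXA2f/f and 1, 1 and 2 and 3, 8 and 2 counts in FOXA2H-KO. Both had unfiltered fitted log2 fold changes below 0, at -1.62 (SE 0.98) for Cd5 and -1.02 (SE 0.83) for Cd6, while that of Cd2 was 0.83 (SE 1.01). The 4 genes thus did not share a direction.

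Zap70, the kinase that binds the phosphorylated CD3 chains, behaved unlike the other T cell genes. It lies at chr1:36761798-36782818 on the plus strand, and its exons in GENCODE M21 overlap no exon of another gene. These are 2992 bases, against a length of 4191 behind the deposited FPKM, so overlap in the annotation used for counting is not known. Its level was 3.99, 3.34 and 3.21 CPM in FOXA2f/f and 2.76, 2.93 and 4.16 CPM in FOXA2H-KO. The highest library was 1.51 times the lowest, against 3.34 to 11.8 times for the other 14 tested members without a 0, and FOXA2f/f replicate 2 was not low. The log2 fold change was -0.10 (SE 0.26, edgeR adjusted p = 0.992). In FOXA2f/f replicate 2, 61 of the 91 counts of all 16 T cell genes came from Zap70. The T cell sum was 8.13 ± 3.20 CPM in FOXA2f/f and 9.003 ± 0.577 CPM in FOXA2H-KO with Zap70, and 4.62 ± 3.30 and 5.72 ± 1.28 CPM without it (SD, n = 3), so that the ratio moved from 1.11 to 1.24. With Zap70 kept, the ratio was 0.928 without FOXA2f/f replicate 2 and 1.38 without FOXA2f/f replicate 4.

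Lck, the kinase bound to the coreceptors, had 0.258, 0.110 and 0.953 CPM in FOXA2f/f and 0.662, 0.561 and 0.370 CPM in FOXA2H-KO. Its log2 fold change was 0.19 (SE 0.71, edgeR adjusted p = 0.993), with the FOXA2H-KO values inside the FOXA2f/f range. Lat, the scaffold that Zap70 phosphorylates, had 4, 6 and 13 counts in FOXA2f/f and 16, 9 and 8 in FOXA2H-KO. Foxp3, the transcription factor of regulatory T cells, had 1, 1 and 5 counts in FOXA2f/f and 5, 3 and 4 in FOXA2H-KO. Of the exon bases of Foxp3, 31.5% also belong to other genes, so that even these few counts are uncertain. For the 16 T cell genes the median log2 fold change was 0.17 over the 4 that were tested, with 3 above and 1 below 0, and 0.18 over all 16 without the filter, with 11 above and 5 below.

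The NK and cytotoxic genes had a sum of 3.52, 1.48 and 6.71 CPM in FOXA2f/f and 6.33, 8.30 and 4.12 CPM in FOXA2H-KO. FOXA2f/f replicate 4 was above 2 of the 3 FOXA2H-KO libraries. The means were 3.90 ± 2.63 and 6.25 ± 2.09 CPM (SD, n = 3), a ratio of 1.60 that was 1.22 without FOXA2f/f replicate 2 and 2.50 without FOXA2f/f replicate 4. Klrd1, also called CD94, pairs with NKG2 chains to read MHC class I, and its level was 0.344, 0.110 and 0.540 CPM in FOXA2f/f and 0.625, 1.12 and 0.601 CPM in FOXA2H-KO. All 3 FOXA2H-KO values were above all 3 FOXA2f/f values (p = 0.1 in a two-sided exact permutation test, which cannot go lower with 3 against 3). This separation rested on 8, 2 and 17 counts in FOXA2f/f and 17, 28 and 13 counts in FOXA2H-KO, with 13 counts in the shallower FOXA2H-KO replicate 4 against 17 in the deepest library. Klrd1 had a log2 fold change of 1.16 (SE 0.57) and did not pass the test (edgeR adjusted p = 0.941, unadjusted p = 0.0781).

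Klrk1, the activating receptor NKG2D, had the most counts of the NK genes. Its level was 1.37, 0.439 and 2.64 CPM in FOXA2f/f and 2.21, 3.73 and 1.34 CPM in FOXA2H-KO, with overlap. Its log2 fold change was 0.68 (SE 0.62, edgeR adjusted p = 0.983). Klrd1 and Klrk1 are neighbours on chromosome 6, at chr6:129591782-129598775 on the plus strand and chr6:129610323-129623864 on the minus strand. The interleukin receptor chain Il2rb, through which NK and T cells receive IL-2 and IL-15, had 0.430, 0.658 and 1.18 CPM in FOXA2f/f and 1.43, 1.12 and 1.02 CPM in FOXA2H-KO. Its log2 fold change was 0.63 (SE 0.44, edgeR adjusted p = 0.983), and FOXA2f/f replicate 4 again lay among the FOXA2H-KO libraries.

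The cytotoxic granule genes did not share a direction. Nkg7, a membrane protein of the granules, had 0.601, 0.110 and 0.795 CPM in FOXA2f/f and 0.405, 0.321 and 0.0925 CPM in FOXA2H-KO, with a log2 fold change of -0.90 (SE 0.74, edgeR adjusted p = 0.983). The granzyme gene Gzma had 9, 0 and 19 counts in FOXA2f/f and 11, 14 and 7 in FOXA2H-KO, with a log2 fold change of 0.29 (SE 0.81, edgeR adjusted p = 0.993). Gzmb, a second granzyme, had 3, 0 and 10 counts in FOXA2f/f and 12, 20 and 0 in FOXA2H-KO. Prf1, which encodes perforin, was at 0 in 3 libraries, with 0, 0 and 2 counts in FOXA2f/f and 6, 3 and 0 in FOXA2H-KO. A library without Gzmb or Prf1 was thus present in both groups.

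The remaining NK receptors and factors had at most 11 counts in a library. Klrb1c, known as NK1.1, had 2, 0 and 1 counts in FOXA2f/f and 6, 2 and 4 in FOXA2H-KO, and Ncr1, the receptor NKp46, had 3, 1 and 8 counts in FOXA2f/f and 0, 7 and 11 in FOXA2H-KO. Eomes and Tbx21, the T-box factors of NK and cytotoxic T cells, had 0, 1 and 5 and 1, 1 and 4 counts in FOXA2f/f and 7, 2 and 1 and 3, 2 and 0 counts in FOXA2H-KO. The groups overlapped in all 4. The median log2 fold change of the NK and cytotoxic genes was 0.63 over the 5 tested, with 4 above and 1 below 0, and 0.71 over all 11 without the filter, with 9 above and 2 below.

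The B cell genes were all tested, and each of the 6 had a log2 fold change above 0 without passing the test, with a median of 0.74. Their sum was 7.13, 2.36 and 12.9 CPM in FOXA2f/f and 16.2, 8.82 and 7.03 CPM in FOXA2H-KO. The means were 7.45 ± 5.26 and 10.7 ± 4.87 CPM (SD, n = 3), and their ratio of 1.43 was 1.07 without FOXA2f/f replicate 2 and 2.25 without FOXA2f/f replicate 4. Cd22, a lectin that restrains the B cell receptor, gave most of these counts, with 101, 26 and 258 in FOXA2f/f and 266, 95 and 91 in FOXA2H-KO. Its level was 4.34, 1.43 and 8.20 CPM in FOXA2f/f and 9.78, 3.81 and 4.21 CPM in FOXA2H-KO, so that 2 FOXA2H-KO libraries lay below FOXA2f/f replicate 1. The log2 fold change of Cd22 was 0.34 (SE 0.61, edgeR adjusted p = 0.991).

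Cd79a and Cd79b, the signalling chains of the B cell receptor, were each lowest in the same library. Cd79a had 0.515, 0.219 and 1.46 CPM in FOXA2f/f and 1.54, 1.32 and 0.324 CPM in FOXA2H-KO, with a log2 fold change of 0.49 (SE 0.74, edgeR adjusted p = 0.983). Cd79b had 1.42, 0.219 and 1.56 CPM in FOXA2f/f and 1.77, 1.40 and 1.29 CPM in FOXA2H-KO, with a log2 fold change of 0.45 (SE 0.59, edgeR adjusted p = 0.983). For both, FOXA2f/f replicate 2 was the lowest library and only FOXA2H-KO replicate 1 was above FOXA2f/f replicate 4.

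Ms4a1, the B cell surface protein CD20, had 0.687, 0.274 and 0.477 CPM in FOXA2f/f and 1.40, 0.882 and 0.601 CPM in FOXA2H-KO. FOXA2f/f replicate 1 lay above FOXA2H-KO replicate 4, and the log2 fold change was 0.99 (SE 0.49, edgeR adjusted p = 0.944). Pax5, the transcription factor that commits cells to the B lineage, had 2, 0 and 21 counts in FOXA2f/f and 28, 20 and 4 in FOXA2H-KO, with a log2 fold change of 1.26 (SE 1.01, edgeR adjusted p = 0.983). Blk, a kinase of the B cell receptor pathway, had 2, 4 and 16 counts in FOXA2f/f and 19, 15 and 9 in FOXA2H-KO, with a log2 fold change of 1.00 (SE 0.62, edgeR adjusted p = 0.971). In both genes the FOXA2f/f library with the most counts was replicate 4, and it lay above FOXA2H-KO replicate 4.

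Il7r, the receptor of the lymphocyte survival factor IL-7, had the largest fitted difference among the 17 tested members. It lies at chr15:9505788-9530176 on the minus strand and had 56, 20 and 192 counts in FOXA2f/f and 353, 153 and 103 in FOXA2H-KO. Its level was 2.41, 1.10 and 6.10 CPM in FOXA2f/f and 13.0, 6.14 and 4.76 CPM in FOXA2H-KO. Only FOXA2f/f replicate 4 reached into the FOXA2H-KO range, where it lay above FOXA2H-KO replicate 4 and just below replicate 2. The log2 fold change was 1.29 (SE 0.62) and did not pass the test (edgeR adjusted p = 0.941, unadjusted p = 0.0710). DESeq2 gave an unadjusted p of 0.0253 and an adjusted p of 0.711.

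Ltb, a membrane cytokine of B and T cells that shapes lymphoid tissue, had 0.988, 0.164 and 1.02 CPM in FOXA2f/f and 0.772, 0.922 and 0.786 CPM in FOXA2H-KO. Its log2 fold change was 0.15 (SE 0.58, edgeR adjusted p = 0.993), with the FOXA2H-KO values within the FOXA2f/f range. Over the 17 tested members the standard errors ran from 0.26 for Zap70 to 1.01 for Pax5, so that a 2-fold difference, 1 on the log2 scale, was within 2 standard errors for most of them. The fitted differences of at least 2-fold, in Il7r, Pax5, Klrd1 and Blk, were not called either. At this spread the lack of calls does not exclude differences of this size or smaller ones.

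**Figure D3:**
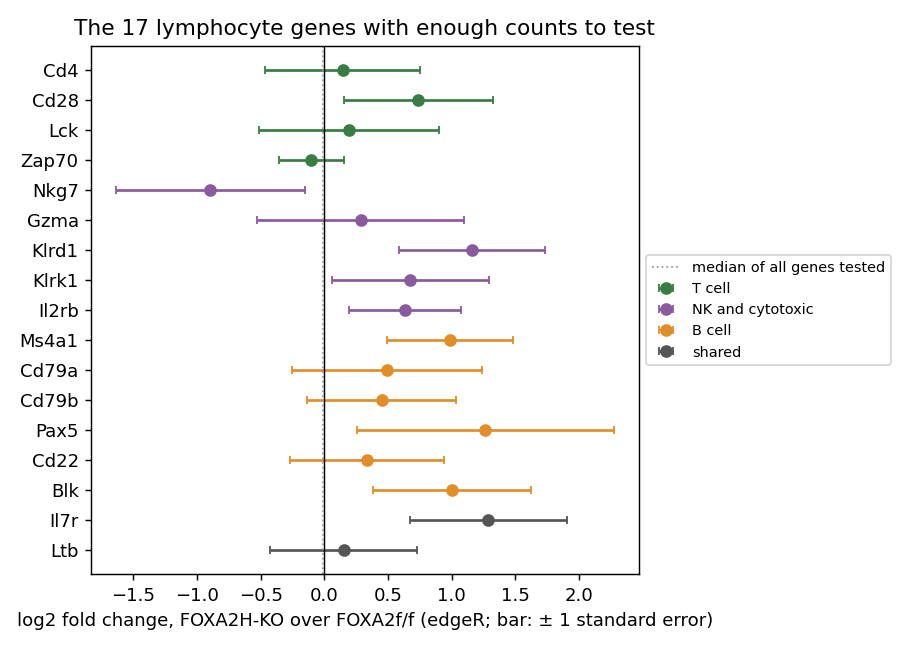
Fitted log2 fold change of FOXA2H-KO over FOXA2f/f (horizontal axis) for the 17 members tested, coloured by cell type, with bars of 1 standard error and a dotted line at the median of all genes tested. Of the points, 15 lie right of 0 and those of Zap70 and Nkg7 lie left, and every adjusted p is 0.941 or above.

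The same libraries were low or high for many of the members. FOXA2f/f replicate 2 had the lowest value, ties included, in 22 of the 35 genes and the highest in 0, while FOXA2H-KO replicate 1 had the highest in 16 and FOXA2f/f replicate 4 in 9. Over all genes tested, each assigned to a single library, FOXA2f/f replicate 2 was lowest in 29.2% and highest in 29.7%. FOXA2H-KO replicate 1 was highest in 15.5% and FOXA2f/f replicate 4 in 19.5% of them. The members' counts, unlike these shares, include ties and genes that were not tested. Markers of some other liver cells had a similar order within FOXA2f/f. The 12 macrophage markers summed to 1412, 674 and 3086 CPM in FOXA2f/f and 2380, 2138 and 1497 CPM in FOXA2H-KO, and the 8 endothelial markers to 363, 203 and 731 CPM and 424, 439 and 459 CPM. FOXA2f/f replicate 2 was lowest and replicate 4 highest of the 6 libraries in both of these lists, but within FOXA2H-KO the endothelial order was opposite to that of the lymphocyte sum. The cholangiocyte markers, at 367, 174 and 231 CPM in FOXA2f/f and 708, 252 and 588 CPM in FOXA2H-KO, and the erythroid and platelet markers, highest in FOXA2f/f replicate 2 at 88.3 CPM, had other orders. The 10 hepatocyte genes ran the other way within FOXA2f/f, at 148669, 170469 and 118236 CPM, against 113624, 137232 and 141904 CPM in FOXA2H-KO.

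Set against the macrophage, pan leukocyte or endothelial marker sum, the lymphocyte sums varied less over the libraries, by an amount that depended on the list. The sums of the other cell types were not used in this way. The T cell genes with Zap70 left out, which was done after its values were seen, amounted to 0.286%, 0.244% and 0.265% of the macrophage sum in FOXA2f/f and to 0.289%, 0.278% and 0.290% in FOXA2H-KO. The highest library was here 1.19 times the lowest, against 1.72 times per pan leukocyte sum, 2.00 times per endothelial sum and 4.97 times without division. With Zap70 the T cell sum per macrophage sum varied 2.01-fold, the NK sum 1.79-fold and the B cell sum 1.95-fold. All 35 members amounted to 1.56%, 1.50% and 1.23% of the macrophage sum in FOXA2f/f and to 1.93%, 1.55% and 1.68% in FOXA2H-KO, with overlapping groups. Without Zap70 these values were 1.28%, 1.00% and 1.13% in FOXA2f/f and 1.81%, 1.41% and 1.41% in FOXA2H-KO, so that the groups then did not overlap. Per pan leukocyte sum, also without Zap70, the groups overlapped, at 5.54%, 3.03% and 5.39% in FOXA2f/f and 6.84%, 6.46% and 4.97% in FOXA2H-KO. Per endothelial sum the groups overlapped as well, at 4.99%, 3.32% and 4.77% in FOXA2f/f and 10.2%, 6.86% and 4.58% in FOXA2H-KO. The part of other cells carried along in the hepatocyte preparations in the lymphocyte values was not tested.

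The neutrophil markers had another order. The 8 genes summed to 107, 6.69 and 52.9 CPM in FOXA2f/f and to 8.86, 15.4 and 7.58 CPM in FOXA2H-KO. FOXA2f/f replicate 2, the library with the fewest lymphocyte counts, was also lowest here, but FOXA2H-KO replicate 1, with the most lymphocyte counts, was above only that library and FOXA2H-KO replicate 4. Of the 7 neutrophil genes tested, 0 were called by edgeR and 6 had an unadjusted p under 0.05, all lower in FOXA2H-KO, against 3.18% of all genes tested, while DESeq2 called 1, Elane. Lymphocyte and neutrophil transcripts thus did not share an order over the libraries.

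**Figure D4:**
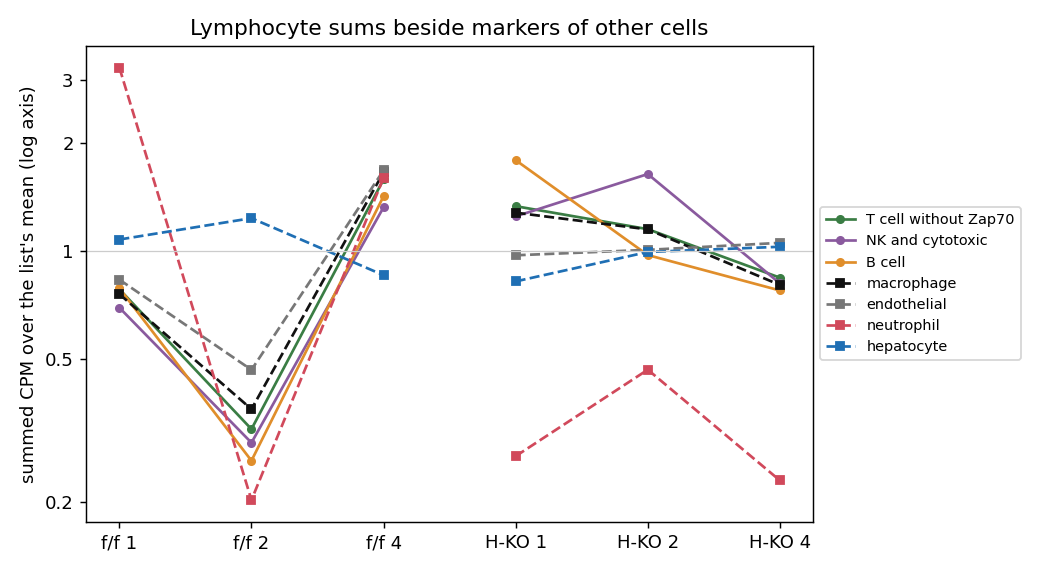
Summed CPM of each gene list divided by its mean over the 6 libraries (vertical axis, logarithmic), with solid lines for the T cell genes without Zap70, the NK and B cell genes, and dashed lines for macrophage, endothelial, neutrophil and hepatocyte markers; lines only join the values of a list within a group. The solid lines and the macrophage line are lowest together at FOXA2f/f replicate 2 and higher at FOXA2f/f replicate 4, while the neutrophil line is highest at FOXA2f/f replicate 1.

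With single libraries left out, the size of the group difference in the lymphocyte lists depended on which FOXA2f/f library was kept. Without FOXA2f/f replicate 4 the median log2 fold change was 1.20 for the T cell, 1.27 for the NK and cytotoxic and 1.26 for the B cell genes tested. Without FOXA2f/f replicate 2 it was -0.15, 0.41 and 0.42, and the log2 fold changes of Cd4 (-0.28), Lck (-0.21), Gzma (-0.21), Cd22 (-0.08) and Ltb (-0.27) were then below 0. Leaving out FOXA2f/f replicate 4 also gave 6 members an unadjusted p under 0.05 of 18 tested, all higher in FOXA2H-KO, namely Cd28, Klrd1, Il2rb, Pax5, Blk and Il7r, against 8.87% of all genes tested that were higher at this threshold in that fit. Their edgeR adjusted p-values lay between 0.201 and 0.297, so that none was called. The largest of the 6 was Pax5 with a log2 fold change of 3.70, where the remaining FOXA2f/f libraries held 2 and 0 counts. In each of the other 5 edgeR fits that left out 1 library, 0 members reached an unadjusted p under 0.05 and 0 were called. Of all genes tested in these fits, 1.79% and 2.37% were higher at this threshold without FOXA2f/f replicates 1 and 2, and 1.66%, 1.75% and 1.15% without FOXA2H-KO replicates 1, 2 and 4. The members whose groups did not overlap numbered 3, 5 and 11 without FOXA2f/f replicates 1, 2 and 4 and 2, 4 and 11 without FOXA2H-KO replicates 1, 2 and 4. The shares of all genes with a count were 15.2%, 17.8% and 28.1% and 15.8%, 16.4% and 14.2% in the same order. Without FOXA2f/f replicate 1, Klrd1, Ms4a1 and Klrb1c were higher in FOXA2H-KO. Without FOXA2f/f replicate 2, Cd5, Cd6, Nkg7 and Ltb were lower in FOXA2H-KO and only Klrd1 was higher. Klrd1 and Ncr1 were higher without FOXA2H-KO replicate 1. Klrd1, Klrb1c and Foxp3 were higher and Trbc2 lower without FOXA2H-KO replicate 2. Without FOXA2f/f replicate 4 all 11 were higher in FOXA2H-KO, against 14.1% of all genes. Without FOXA2H-KO replicate 4, 9 were higher and 2 lower, against 7.09% and 7.14% of all genes.

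**Figure D5:**
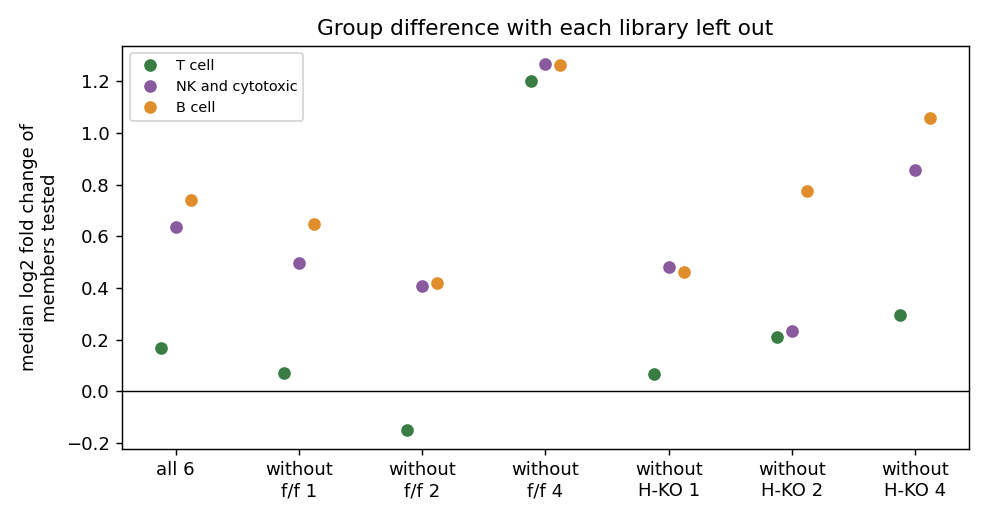
Median log2 fold change (vertical axis) of the T cell, NK and cytotoxic, and B cell members tested, with all 6 libraries and with each library left out in turn (horizontal axis). All 3 medians are highest without FOXA2f/f replicate 4, at 1.20 to 1.27, and the T cell median lies below 0 without FOXA2f/f replicate 2, at -0.15.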

How the data were processed

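For each of the 6 libraries the authors deposited whole-number counts of fragments on 34745 Ensembl genes, not normalized, together with FPKM values that can be derived from those counts, the library total and 1 length per gene. The submitters' processing notes name CASAVA 1.8, TopHat2 2.1.0, HTSeq, edgeR and the genome build mm10, without role or order. The gene annotation and the strand setting are not given in the sources used here. Libraries were poly-A TruSeq, paired-end, with no strand marking stated. Replicates are numbered 1, 2 and 4 as in the labels, while column names in the files number them from 1 to 3, and each file was tied to its sample by the record that accompanies it. A table of the whole series repeats these columns and was not used. Nothing in the labels says that the libraries came from separate mice, although the paper describes groups of mice, so p-values measure the spread between these samples.

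All genes were fitted from the counts with edgeR 4.0.16 under R 4.3.3 (filterByExpr, TMM scaling, quasi-likelihood test, two-sided, no block) and p-values were adjusted over the 14417 genes tested by the Benjamini-Hochberg method. A gene was called at an adjusted p under 0.05 and a change of at least 2-fold. CPM are counts per 1000000 of the TMM-scaled library. Single genes were also compared by an exact two-sided permutation test of log2(CPM + 0.1). Symbols were available for 34267 genes. Positions, overlaps and the Trbc sequences come from GENCODE M21 on GRCm38. All 35 members are named, Foxa2 as the check of the labels, and of the other lists the genes with an unadjusted p under 0.05 or, for further lymphocyte lists, the 3 with the highest CPM, apart from genes named as reference levels. Some genes that this rule gives are left out here. The members and all lists were chosen with earlier results of these data known. Alternatives were DESeq2 1.42.0, upper quartile and library size scaling, edgeR's exact test, other filters, limma 3.58.1 on log2(FPKM + 1) of the deposited FPKM where the mean reached 0.1, a block for the replicate number and each library left out. The sums without Zap70, the sums per macrophage marker and the overlap on other scales were added after seeing the data.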

Additional observations from a re-analysis of the deposited data

How the results depend on the processing

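No member was called under any of the 16 alternatives run, edgeR, DESeq2 and limma included. Members with an unadjusted p under 0.05 numbered 0 in the main edgeR fit, 1 by DESeq2 (Il7r), 2 by edgeR's exact test (Il7r and Klrd1), 1 without the filter on low counts (Il7r) and 0 to 6 with 1 library left out, the 6 without FOXA2f/f replicate 4. The share of all genes at this threshold was not counted for the exact test, the unfiltered fit or the replicate block, so these members cannot be set beside it. Over all genes, the main edgeR fit made here called 1, the deleted gene Foxa2. The paper reports many more differentially expressed genes at the same FDR and fold-change thresholds. The count of all genes called was 75 by DESeq2 (27 higher, 48 lower), 64 by the exact test (24 and 40) and 2 without the filter. It was 0 with library size alone, 0 by limma on FPKM and 0 to 6 with 1 library left out. At an unadjusted p under 0.05 with a 2-fold change it was 254 (120 and 134). Leave-one-out medians ran from -0.15 to 1.20 (T cell), 0.23 to 1.27 (NK and cytotoxic) and 0.42 to 1.26 (B cell), and members whose groups did not overlap numbered 2 to 11, where 14.2% to 28.1% of all genes did not overlap. With at least 10 counts in every library Zap70 was the only T cell gene left and the median was -0.10. Library size alone moved the median of all genes from -0.01 to 0.10. The sign of Zap70 turned with library size alone (0.012), with limma on FPKM (0.0046) and without FOXA2f/f replicate 1 or FOXA2H-KO replicate 1 (range with single libraries left out -0.30 to 0.015). It also turned in Cd4 (-0.28 to 0.97), Lck (-0.21 to 1.47), Gzma (-0.21 to 1.03), Cd22 (-0.23 to 1.03) and Ltb (-0.27 to 0.47), in each without FOXA2f/f replicate 2, in Lck also without FOXA2f/f replicate 1 and in Cd22 without FOXA2H-KO replicate 1, and in no other tested member. With the replicate block, 0 genes were called and 1 member, Il7r, had an unadjusted p of 0.0487, and the medians were 0.48, 0.73 and 0.83. Same-numbered libraries of the groups did not deviate together (correlations -0.07, 0.03 and -0.23 across genes), and pairing was not used. So few correlations cannot show whether the shared numbers stand for a shared preparation. Causes were not tested. Depth leaves 18 members untested and allows up to 0.143 counts per 1000000 where a library shows 0.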

Other observations

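Other genes of the same cells were called in no case by edgeR or DESeq2, and their sums did not all follow the members. The further T cell genes summed to 89.4, 159.9 and 153 CPM in FOXA2f/f and 97.1, 154 and 132 CPM in FOXA2H-KO, a ratio of 0.953, with FOXA2f/f replicate 2 highest. The further B cell genes had a ratio of 0.845 and the further NK and cytotoxic genes 1.25, against 1.48 for the members. These sums include highly counted genes that other cells use too, of which only some are named below, so that they do not stand for lymphocytes alone. Of 25 further T cell genes 8 were tested, with 5 above and 3 below 0 and a median log2 fold change of 0.27, and 0 were called. Among those with the highest CPM were transcription factors that are not restricted to T cells, Zbtb16 with a mean of 51.3 CPM over the 6 libraries and Tcf7 with 8.21 CPM. The receptor chains Trac and Cd247 had means of 0.0878 and 0.175 CPM. Of 18 further NK and cytotoxic genes 5 were tested, all above 0 with a median of 0.20, led by Fcgr3, Tyrobp and Cd244a, which myeloid cells use as well.

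Of 20 further B cell genes 16 were tested, with 12 above and 4 below 0 and a median of 0.45, and 0 were called by edgeR. Jchain and Mzb1, which plasma cells use, were below 0, with log2 fold changes of -0.72 (standard error, SE, 0.47) and -0.79 (SE 0.49). Neither passed the test. Both were chosen after their values were seen and do not stand for all plasma cell genes of the list. The 3 with the highest CPM, Sdc1, Xbp1 and Cd74, are each used by other liver cells too. Sdc1 was lower in all 3 FOXA2H-KO libraries with a log2 fold change of -0.37 (SE 0.14, unadjusted p = 0.0352, edgeR Benjamini-Hochberg adjusted p = 0.918). Among 17 genes of signalling downstream of the antigen receptors, 16 were tested, with 12 above and 4 below 0 and a median of 0.28, and 0 were called or had an unadjusted p under 0.05. The 10 pan leukocyte markers were all tested and all above 0, with a median of 0.37, the 12 macrophage markers had 10 above 0 and a median of 0.32, and 7 of 7 dendritic genes tested were above 0 with a median of 0.49, beside which the members' median was 0.49. Of the dendritic genes Siglech, a marker of plasmacytoid cells, had a log2 fold change of 1.00 (SE 0.39, unadjusted p = 0.0353, edgeR adjusted p = 0.918). The endothelial, stellate, cholangiocyte, erythroid and hepatocyte lists had medians of -0.07, 0.16, 0.91, 0.00030 and -0.12, and the neutrophil list -3.20, with 0 genes called by edgeR in any of them. Unadjusted p under 0.05 was reached there by Krt7 and Spp1 (higher) and by Alas2, S100a8, S100a9, Mpo, Elane, Ngp and Camp (lower).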
